A study of Mus musculus with 6 samples.

Results

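The genes described here are the semaphorins, plexins, Slits, Robo receptors and Unc5 receptors of the mouse, together with the neuropilins Nrp1 and Nrp2, the netrins Ntn1 and Ntn4, the netrin receptors Dcc and Neo1, and neuritin (Nrn1). The members were found by their symbols, some as families and some named singly, and 48 of the 21966 genes in the deposited table matched. Unc50 matched by its letters but is not a netrin receptor, and it was kept among the 48. RNA-seq compared colon tumor cells that express PID, a peptide that inhibits the Group I Pak kinases, with tumor cells that do not, and asked how transcription differs when Pak activity is repressed. PID+ cells came from CDX2P-NLS-Cre;APCΔ/+;ROSA26-PID mice, labelled as mice 4, 7 and 26, and PID- cells from CDX2P-NLS-Cre;APCΔ/+ mice, labelled as mice 1, 2 and 3. In PID+ cells a GST-PID cassette followed by an eGFP reporter is expressed from the Rosa26 locus after Cre removes a stop sequence. The APCΔ/+ allele and the Cre transgene are shared by both groups, and Cre is driven by the CDX2 promoter, so that recombination takes place chiefly in gut epithelium, from the distal small intestine to the colon. Both groups were grown as primary cultures from tumors, so that host tissue around the tumor is represented only as far as it persisted in culture. The cultures came from adenomas of cohorts whose mice were kept to 8 months of age. PID- samples carry the word normal in the labels, and the numbers of these samples are not those that the study's text gives its PID- cells. The labels name 3 mice per condition, whereas the methods speak of repeated sequencing runs.

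Semaphorins are secreted or membrane-bound ligands that steer growing axons and migrating cells, and plexins are their receptors. Secreted class 3 semaphorins mostly bind neuropilins, which pair with plexins to pass the signal on. Slits act through Robo receptors and netrins through Dcc, Neo1 and the Unc5 receptors. All of these receptors reach the cytoskeleton through small GTPases, of which Rac and Cdc42 activate Group I Paks, and the same genes are used by epithelial and vascular cells outside the nervous system.

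The authors merged the reads of a condition before quantification, and each gene therefore had 1 FPKM (fragments scaled to transcript length and to the size of the library) per condition, with the interval that CuffDiff gave. No value per sample was at hand, so that no difference below has a replicate check and no test was run. Rows named treated are taken here to be PID+ cells and rows named untreated to be PID- cells. Log2 changes are those of FPKM + 1, on which differences between low values look smaller than they are, and genes at least 3-fold apart on that scale were counted. The reads were merged before CuffDiff, so that its intervals do not measure the spread among the samples of a condition. The intervals were wide. Among members with an FPKM of at least 1, the median distance from the FPKM to its upper bound came to 90.2% of the value for PID+ and 78.8% for PID- cells.

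The guidance genes moved in both directions. Of the 48 members, 4 passed 3-fold downward in PID+ cells (Nrn1, Plxnd1, Robo1 and Sema3c), a share of 8.33%, against 1.72% of the 21959 genes with an OK status in both conditions. A further 3 were at least 3-fold higher (Sema3a, Sema5a and Sema6a), 6.25% against 1.04% of all genes, and 41 lay between. With Gapdh set equal in both conditions, which put the median log2 change of genes averaging 1 FPKM or more at -0.57, Sema3a and Sema5a were no longer 3-fold higher on the FPKM + 1 scale. Their log2 changes were then 1.04 and 1.54, against a threshold of 1.58, so that Sema5a lay just under it. At 2-fold, 7 members were lower and 7 higher, against 3.77% and 3.31% of all genes. The deposited intervals were apart for 1 member that was lower (Nrn1), against 0.542% of all genes, and for 2 that were higher (Sema5a and Sema6a), against 0.187%. In all, 28 members had a lower FPKM in PID+ cells, 18 a higher one and 2 were listed at 0 in both conditions. The median log2 change of the members was -0.075, and that of all genes was 0. Among genes averaging 1 FPKM or more, the medians were -0.24 for the members and -0.0069 for all genes. In bulk RNA such as this, fewer cells of a type and less RNA per cell cannot be told apart.

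**Figure D1:**
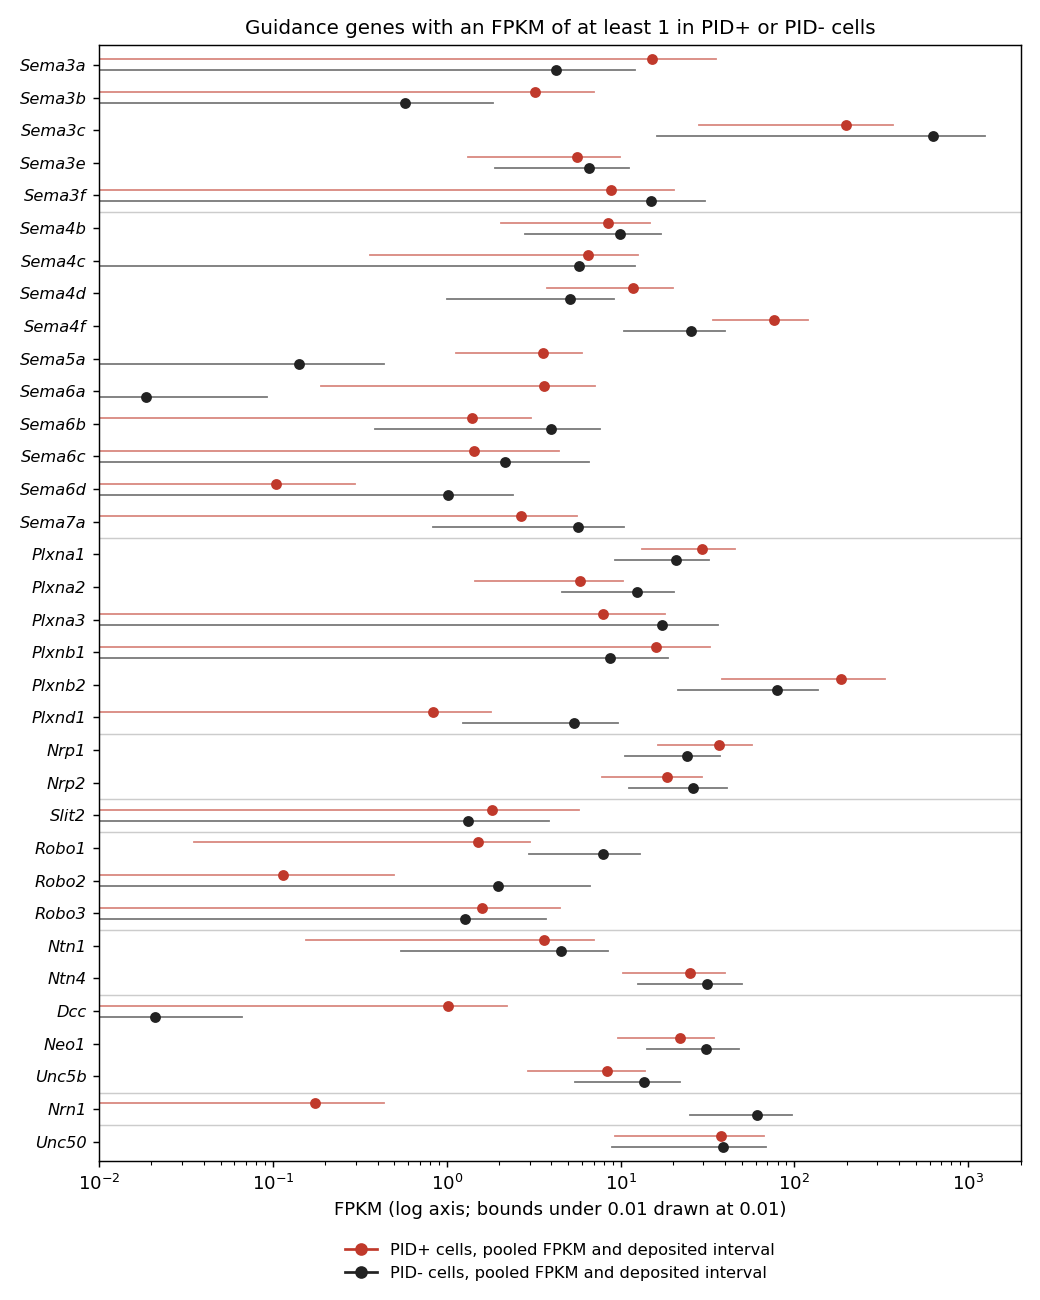
FPKM of the guidance genes in PID+ and PID- cells on a log axis, 1 pooled value per condition, with lines for the interval deposited with each value and bounds under 0.01 drawn at 0.01. Nrn1, at 0.173 in PID+ and 60.8 in PID- cells, and Sema5a and Sema6a, both higher in PID+ cells, are the members whose intervals are apart.

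Expression was uneven across the families. In PID+ or PID- cells or both, 34 members reached an FPKM of 1, and 17 reached 10, of which 9 did so on both sides. The other 14 members stayed under 1 in both conditions, the highest of them Sema4g, with 0.484 in PID+ and 0.291 in PID- cells. They were Sema3d, Sema3g, Sema4a, Sema4g, Sema5b, Plxna4, Plxnb3, Plxnc1, Slit1, Slit3, Robo4, Unc5a, Unc5c and Unc5d. After rounding, at most 3 fragments were estimated in PID+ or PID- cells for Plxnc1, Robo4, Sema5b, Slit3, Unc5a and Unc5d, and Sema5b and Unc5d were listed at 0.

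Among the secreted class 3 semaphorins, Sema3c set the level of the family. Sema3c, a ligand of Nrp1 and Nrp2, reached 632 FPKM in PID- cells (interval 16.2 to 1247) against 198 in PID+ cells (28.1 to 369), a ratio of 3.18 and a log2 change of -1.66 (chr5:17574281-17730268, GRCm38). It was the gene with rank 120 of all genes by FPKM in PID- cells and rank 370 in PID+ cells. The wide intervals overlapped. Sema3c made up 88.0% of the summed semaphorin FPKM in PID- cells, 718, and 57.0% of the 348 in PID+ cells. Sema3a, the classic repellent that collapses growth cones through Nrp1, went the other way. It measured 15.1 FPKM in PID+ (0 to 35.5) against 4.25 in PID- cells (0 to 12.1), a ratio of 3.54 and a log2 change of 1.61 (chr5:13125414-13602565). Both lower bounds were 0. Sema3b, another ligand of the neuropilins, stood at 3.21 against 0.575, a log2 change of 1.42 that lay just outside 3-fold (1.58) and was 2.29 with a pseudocount of 0.1. Sema3f, which prefers Nrp2, had 8.83 FPKM (0 to 20.4) in PID+ and 14.9 (0 to 30.7) in PID- cells, a ratio of 1.69 (chr9:107681500-107710475). Sema3e, which binds Plxnd1 without a neuropilin, was at 5.64 in PID+ and 6.57 in PID- cells. Sema3a and Sema3c lie on the same chromosome, whose expressed genes had a median log2 change of 0.0074, and so moved apart on it.

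The 13 membrane-bound semaphorins had a total of 117 FPKM in PID+ against 59.8 in PID- cells, or 75.7 in PID+ cells with Gapdh equal. Sema4f, a transmembrane semaphorin, was the most abundant of them, with 76.5 FPKM in PID+ (33.8 to 119) and 25.3 in PID- cells (10.5 to 40.0), a ratio of 3.03 (chr6:82911885-82939769). Its log2 change of 1.56 lay just below the threshold of 1.58, and it came to 1.59 with equal upper quartiles, 1.60 with a pseudocount of 0.1, 1.22 with the chromosome median subtracted and 0.95 with Gapdh equal. The ratio of Sema4d, the ligand of Plxnb1, was 2.33, from 11.8 FPKM (3.79 to 19.9) in PID+ and 5.09 (0.999 to 9.17) in PID- cells (chr13:51685529-51793747). Sema4b measured 8.45 in PID+ and 9.96 in PID- cells. Sema4c, a ligand of Plxnb2, was at 6.52 and 5.78, an order that turned with Gapdh equal. Sema5a, which carries thrombospondin repeats outside the cell, was under 1 in PID- cells. It had 3.57 FPKM (1.13 to 6.01) in PID+ and 0.142 (0 to 0.433) in PID- cells, a ratio of 25.2 and a log2 change of 2.0 (chr15:32244810-32696341). With Gapdh equal the log2 change of Sema5a was 1.54, just under the threshold, and with a pseudocount of 0.1 it was 3.93. Sema6a, a ligand of the class A plexins Plxna2 and Plxna4, was lower still in PID- cells, at 0.0186 (0 to 0.0920) against 3.64 (0.189 to 7.08) in PID+ cells (chr18:47235598-47368870). About 12 fragments were estimated behind the PID- value, so that the ratio of 195 is imprecise, and the log2 change was 2.19. The intervals of Sema5a and Sema6a were apart. The other class 6 members were lower in PID+ cells. Sema6b measured 1.40 against 4.0, Sema6c 1.43 against 2.17, and Sema6d 0.104 against 1.02. The log2 change of Sema6d was -0.87, and with a pseudocount of 0.1 it was -2.45 and passed 3-fold. Sema7a, which is anchored to the membrane by a lipid and also binds integrins, was at 2.69 in PID+ and 5.66 in PID- cells.

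**Figure D2:**
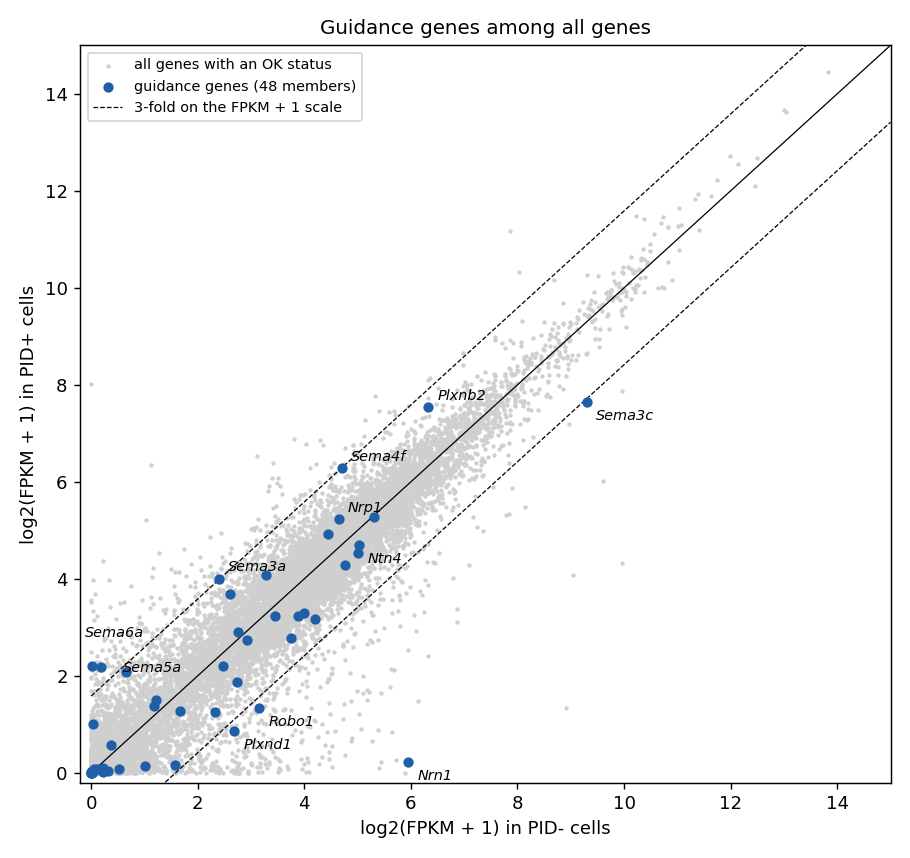
Log2(FPKM + 1) of each gene with an OK status in PID- cells (horizontal axis) and PID+ cells (vertical axis), with the 48 guidance genes in blue and dashed lines at 3-fold. Nrn1, Plxnd1, Robo1 and Sema3c lie below the lower line and Sema3a, Sema5a and Sema6a above the upper one (Sema6a alone with Gapdh equal), while Sema4f sits just inside it.

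Together the plexins had 246 FPKM in PID+ against 144 in PID- cells, or 159 in PID+ cells with Gapdh equal, and most of it was Plxnb2. Plxnb2, a receptor of class 4 semaphorins that acts on RhoA, had 186 FPKM (38.2 to 333) in PID+ and 79.2 (21.4 to 137) in PID- cells, a ratio of 2.35 and a log2 change of 1.22 (chr15:89155549-89180788). It held 75.5% of the plexin FPKM in PID+ and 54.9% in PID- cells. Plxnb1, the receptor of Sema4d, was at 15.9 (0 to 32.8) and 8.70 (0 to 18.6), a ratio of 1.83 (chr9:109095389-109119917). Plxnb1 and Plxnb2 were higher in PID+ cells, also with Gapdh equal, whereas Plxnb3 was under 1 in both conditions. Of the class A plexins, which serve neuropilins as signaling partners, Plxna1 was the most abundant, with 29.5 FPKM (13.2 to 45.7) in PID+ and 20.9 (9.33 to 32.4) in PID- cells, a ratio of 1.41 (chr6:89316314-89362620). With Gapdh equal its log2 change turned from 0.48 to -0.12. Plxna2 measured 5.88 (1.45 to 10.3) against 12.4 (4.62 to 20.2), 2.11-fold lower in PID+ cells (chr1:194618218-194816869). Plxna3, on the X chromosome, was 2.18-fold lower, at 7.97 (0 to 18) against 17.3 (0 to 36.2) (chrX:74329066-74344689). Genes averaging 5 FPKM or more on that chromosome had a median log2 change of -0.45, and with it subtracted Plxna3 went from -1.03 to -0.58. The intervals overlapped for each of these class A and class B plexins. Plxnd1, the vascular plexin that binds Sema3e, was the plexin at least 3-fold lower. It had 0.829 FPKM (0 to 1.79) in PID+ and 5.43 (1.24 to 9.63) in PID- cells, a ratio of 6.55 and a log2 change of -1.81 (chr6:115954811-115995005), and the intervals overlapped between 1.24 and 1.79.

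The neuropilins, co-receptors of class 3 semaphorins and of VEGF, differed in direction. Nrp1 had 36.7 FPKM (16.5 to 56.8) in PID+ and 24.1 (10.5 to 37.6) in PID- cells, a ratio of 1.52 (chr8:128358604-128503363). With Gapdh equal its log2 change went from 0.59 to -0.017. Nrp2 was at 18.6 (7.81 to 29.4) in PID+ and 26.1 (11.1 to 41.0) in PID- cells, a ratio of 1.40 in favor of PID- cells (chr1:62703285-62818695). Both were expressed in both conditions with intervals that overlapped.

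Of the Slits, which repel axons through Robo receptors, Slit2 alone reached an FPKM of 1, with 1.82 in PID+ and 1.32 in PID- cells, an order that turned with Gapdh equal. Robo1 and Robo2 were lower in PID+ cells. Robo1, a Slit receptor, fell to 1.52 FPKM (0.0353 to 3.01) in PID+ cells against 7.94 (2.98 to 12.9) in PID- cells, a 5.21-fold difference (log2 change -1.83) (chr16:72308306-73046095). The intervals overlapped between 2.98 and 3.01. Robo2, also a Slit receptor, was at 0.114 in PID+ and 1.98 in PID- cells, a ratio of 17.4. Its log2 change of -1.42 lay just outside 3-fold, and with a pseudocount of 0.1 it was -3.29 and passed. Robo1 and Robo2 both lie on chromosome 16, where 277 genes averaging 5 FPKM or more had a median log2 change of -0.50. With the median of each chromosome subtracted, Robo1 came to -1.32 and was no longer 3-fold lower, and Robo2 came to -0.92. Robo3, which in the nervous system lets axons cross the midline, measured 1.60 and 1.28, and its order turned with Gapdh equal. Robo4, the endothelial member, was under 0.01 in both conditions.

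Neither Ntn1 and Ntn4 nor the receptors Dcc, Neo1 and Unc5a to Unc5d passed 3-fold on the FPKM + 1 scale. Ntn4, a netrin of basement membranes, had 25.0 FPKM (10.3 to 39.8) in PID+ and 31.4 (12.6 to 50.3) in PID- cells, a ratio of 1.26 in favor of PID- cells (chr10:93640681-93747207). Ntn1, the ligand of Dcc, was at 3.61 and 4.53. Neo1, the Dcc relative that also binds repulsive guidance molecules, measured 22 (9.65 to 34.4) in PID+ and 31.1 (14.2 to 48) in PID- cells, 1.41-fold lower in PID+ cells (chr9:58874687-59036441). Unc5b, which turns netrin into a repellent, was at 8.39 (2.94 to 13.8) against 13.7 (5.49 to 21.9), 1.63-fold lower in PID+ cells (chr10:60762593-60831581). Dcc, named for its deletion in colorectal cancer, was the netrin receptor with a higher value in PID+ cells. It had 1.02 FPKM (0 to 2.23) in PID+ and 0.0211 (0 to 0.0660) in PID- cells. Its log2 change was 0.99 with a pseudocount of 1 and 3.21 with 0.1, since both values were low. Unc5a, Unc5c and Unc5d stayed under 0.2, and Unc50 stood at 38.0 (9.31 to 66.6) in PID+ and 38.7 (8.96 to 68.5) in PID- cells, a ratio of 1.02 (chr1:37430139-37439124).

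Nrn1, a small protein on a lipid anchor that promotes neurite growth, differed most of all members. It had 0.173 FPKM (0 to 0.437) in PID+ and 60.8 (24.9 to 96.6) in PID- cells, a ratio of 350 and a log2 change of -5.72 (chr13:36725361-36735131). This was rank 3 among the falls of all genes. About 19 fragments were estimated in PID+ and 9134 in PID- cells. The gene overlaps Fars2, and the libraries do not mark strand, so that fragments of the 2 genes over the shared stretch cannot be told apart by strand.

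Further genes of the pathways were counted in the same way from a pair of lists. Of 22 ligands and co-receptors outside the members, 21 were in the table and their median log2 change was 0.0016. Ntng2, a netrin relative on a lipid anchor, was listed at 0 in PID+ and at 5.79 (0 to 13.9) in PID- cells. Its intervals were not apart. Ntng2 was the only one at least 3-fold lower, and none was 3-fold higher. Mst1r, a receptor tyrosine kinase related to Met, lay just outside, at 2.03 in PID+ against 0.0420 in PID- cells, with a log2 change of 1.54, and passed with a pseudocount of 0.1 (3.91). Itgb1, an integrin chain that Sema7a binds, was the most abundant, at 490 and 703 FPKM. Of 41 intracellular effectors, 2 were at least 3-fold lower and 1 was higher, with a median log2 change of -0.24. Fyn, a kinase downstream of class A plexins and Dcc, had 0.591 (0 to 1.70) in PID+ and 14.6 (4.25 to 25.0) in PID- cells (log2 change -3.29), and its intervals were apart. Pak3, a Group I Pak, was at 14.7 (0 to 35.2) against 75.9 (0 to 172), a log2 change of -2.29 with overlapping intervals. It lies on the X chromosome, whose genes averaging 5 FPKM or more had a median log2 change of -0.45. The Group I Paks Pak1 and Pak2 differed less, at 17.6 against 23.4 and 39.5 against 52.6 (log2 changes -0.39 and -0.40). Fes, a tyrosine kinase linked to plexin signaling, had 11.9 (3.28 to 20.6) in PID+ and 1.98 (0 to 4.70) in PID- cells (log2 change 2.12, or 1.55 with Gapdh equal, which is under 3-fold). The most abundant effector was Cfl1, the actin-severing cofilin, at 752 and 659 FPKM, an order that turned with Gapdh equal (log2 change 0.19 to -0.43). Across both lists, 3 of 62 measured genes (4.84%) were at least 3-fold lower and 1 (1.61%) was higher, against 1.72% and 1.04% of all genes. With Gapdh equal, 6 were lower and 0 higher, against 3.01% and 0.346% of all genes.

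Markers of cell types were read beside these values. The 8 epithelial markers had a total of 8809 FPKM in PID+ against 4886 in PID- cells, or 5711 in PID+ cells with Gapdh equal. Of these markers, 7 had a higher FPKM in PID+ cells and 1 a lower one. Krt8 was at 2745 in PID+ and 1319 in PID- cells, and Krt18 at 2843 and 1199. Cdh1 measured 192 and 88.0, and Krt20 158 and 73.5. Krt8, Krt18, Cdh1 and Krt20 were each under 3-fold and stayed higher with Gapdh equal (log2 changes 0.43, 0.62, 0.50 and 0.48). Krt19 was the most abundant by mean of both conditions, at 2469 and 2073, and its order turned with Gapdh equal (log2 change 0.25 to -0.37). Epcam was at least 3-fold higher in PID+ cells, at 401 against 124, but its log2 change went from 1.68 to 1.06 with Gapdh equal and no longer passed. Cdx2, a transcription factor of intestinal epithelium, was at least 3-fold lower, at 0.542 against 8.04, and Vil1, which marks the brush border, was under 0.2 in both conditions. The 7 fibroblast markers had a total of 3.0 in PID+ against 33.7 in PID- cells, and 4 of them were at least 3-fold lower. Col1a1 had 2.32 against 11.9, Col1a2 0.0654 against 11.9 and Col3a1 0.339 against 6.35, and Dcn was listed at 0 against 2.39. Lum was listed at 0 in both conditions and Pdgfra was at 0.188 and 0.243. Pdgfrb was at 0.0896 against 0.987 and passed 3-fold with a pseudocount of 0.1 (-2.52). The part of these markers in the values of the guidance genes was not tested. The 6 endothelial markers summed to 3.77 and 1.12, with Kdr the most abundant, at 3.33 and 1.01, while Cldn5 was listed at 0 and Pecam1 was at 0.0960 and 0.0931. The 6 neuronal markers summed to 13.1 and 6.76, most of it Uchl1, at 12.0 and 4.04, with Elavl3 and Elavl4 under 0.2. Tubb3, which overlaps the gene Gm20388, was lower in PID+ cells, at 0.296 (0 to 18.4) against 2.15 (0 to 65.4). Smooth muscle markers summed to 5.77 and 13.0, most of it Acta2, at 4.39 and 9.76. Leukocyte markers summed to 22 and 17.1, most of it Cd68, at 21.8 and 16.8, with Ptprc under 0.03 and Cd3e listed at 0. With Gapdh equal the leukocyte total was 14.2 in PID+ cells, and the log2 change of Cd68 turned from 0.35 to -0.24. None of the endothelial, neuronal, smooth muscle and leukocyte markers described here was 3-fold apart on the FPKM + 1 scale, while Kdr, Cdh5 and Tubb3 passed with a pseudocount of 0.1. Cdh5 was low in both conditions, at 0.219 in PID+ and 0.00279 in PID- cells, with about 57 and 1 fragments estimated.

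Promoter sequences of 38 of the 48 members were found in the RefSeq table (GRCm38.p6), which gave 51 promoters of 300 bases, from 250 before to 50 after the start. They were searched on both strands for CACCTG, the letters of the E-box to which repressors of the Snai and Zeb families bind. It was present in 7 of the 51 promoters (13.7%), against 6640 of all 32851 (20.2%). Of the members at or near the 3-fold threshold that were in the table, Sema4f held it 2 times and Robo1 once, and Sema3a, Sema3c, Sema5a, Plxnd1 and Robo2 did not. A match is a description of letters only. The promoters of these 4 genes, chosen after their values were seen, are shown so that a reader can compare one that holds the letters more than once (Sema4f), one that holds them once (Robo1), the most abundant semaphorin (Sema3c) and a member with intervals apart (Sema5a). Capitals mark CACCTG or its complement on the other strand. The windows are chr6:82939720-82940019 on the minus strand for Sema4f, chr16:72662899-72663198 on the plus strand for Robo1, chr5:17574566-17574865 on the plus strand for Sema3c and chr15:32244563-32244862 on the plus strand for Sema5a. In Sema4f the matches began 110 and 89 bases before the start, and in Robo1 164 bases before it. The windows of Robo1, Sema3c and Sema3a (not shown) lie within the gene spans given above, so that their starts are not the outermost ones.
Sema4f: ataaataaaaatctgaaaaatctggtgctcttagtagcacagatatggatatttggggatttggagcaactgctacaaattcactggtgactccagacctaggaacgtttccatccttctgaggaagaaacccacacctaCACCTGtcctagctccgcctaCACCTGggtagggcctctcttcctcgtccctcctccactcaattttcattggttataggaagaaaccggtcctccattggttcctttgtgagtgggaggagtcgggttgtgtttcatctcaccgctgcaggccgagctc
Robo1: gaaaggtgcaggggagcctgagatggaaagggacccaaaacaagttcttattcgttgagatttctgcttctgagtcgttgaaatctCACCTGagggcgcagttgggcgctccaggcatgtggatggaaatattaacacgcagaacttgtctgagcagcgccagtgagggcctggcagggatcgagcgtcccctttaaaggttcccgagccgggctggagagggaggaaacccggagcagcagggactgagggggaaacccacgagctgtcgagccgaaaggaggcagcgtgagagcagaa
Sema3c: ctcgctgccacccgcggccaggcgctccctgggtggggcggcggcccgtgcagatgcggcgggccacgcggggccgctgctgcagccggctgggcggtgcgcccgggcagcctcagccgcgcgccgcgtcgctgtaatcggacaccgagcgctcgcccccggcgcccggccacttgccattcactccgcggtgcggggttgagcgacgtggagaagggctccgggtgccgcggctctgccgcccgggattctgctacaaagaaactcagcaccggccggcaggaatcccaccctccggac
Sema5a: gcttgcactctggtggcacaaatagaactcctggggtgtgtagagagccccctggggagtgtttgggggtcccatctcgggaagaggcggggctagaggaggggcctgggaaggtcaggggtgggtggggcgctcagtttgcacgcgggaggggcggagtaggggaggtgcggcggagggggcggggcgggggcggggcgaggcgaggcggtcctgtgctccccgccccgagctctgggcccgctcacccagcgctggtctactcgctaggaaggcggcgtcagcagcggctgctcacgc
The median GC content of the members' promoters was 64.3%, against 52.7% for all promoters in the table.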

How the data were processed

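Poly-A selected libraries were made with a kit that does not mark strand. The authors trimmed the reads with CutAdapt, aligned them with TopHat (GRCm38.p3, protein coding genes only), and merged all reads of a condition, 3 sets in each. They deposited FPKM from CuffDiff, 1 value per gene and condition, with interval bounds. Depth per sample is unknown. In genes with 1 transcript, low values lay within 0.1 of a whole number of fragments for 91.4% of 678 values in PID+ and 91.3% of 656 in PID- cells, after a length correction of 180 bases. The FPKM that 1 fragment stood for was 1.38 times higher in PID+ cells, a figure that mixes depth with scaling, and estimated fragments are approximate. Of 21966 genes, 7 without an OK status were left out, and 21734 had a symbol. Members and lists were chosen with earlier results of these data known. Members that reached an FPKM of 1 in PID+ or PID- cells were named, with interval and position where at least 3-fold apart, with intervals apart or at 10 or more. From the lists, genes 3-fold apart and the most abundant were named. Mst1r, Pak1 and Pak2 (not markers) and further markers were added after their values were seen. Some marker results are not reported here. Positions came from Gencode M21. Alternatives were a pseudocount of 0.1, equal Gapdh, equal upper quartiles, the chromosome median subtracted, a mean FPKM of at least 1, a 2-fold threshold and other readings of the symbols. Leaving out Unc50 was added after seeing the data, as were the values of single list genes (not the counts over the lists) with equal Gapdh or a pseudocount of 0.1. The calculations were tested on simulated data. Python 3.11.15, numpy 2.4.6, pandas 2.3.3 and matplotlib 3.10.9 were used.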

Additional observations from a re-analysis of the deposited data

How the results depend on the processing

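With a pseudocount of 0.1, 7 members were at least 3-fold lower and 6 higher, the same 7 as before among them, against 3.62% and 2.83% of all genes, and the median log2 change of the members was -0.22. Those gained were Sema4a, Sema6d and Robo2, which were lower, and Sema3b, Sema4f and Dcc, which were higher. With Gapdh equal, 4 members were lower and 1 higher, against 3.01% and 0.346% of all genes, and of the other guidance genes 6 were lower and 0 higher. The median was then -0.19 over all members, against -0.079 over all genes, and -0.72 over the 32 members averaging 1 FPKM or more, against -0.57 over all such genes. The sign then turned for 5 of 34 named members (Sema4c, Plxna1, Nrp1, Slit2 and Robo3). With a pseudocount of 0.1, 4 of the other guidance genes were lower and 2 higher. A threshold of 2-fold gave 7 lower and 7 higher members. The median was -0.21 with the median of each chromosome subtracted, which left 3 lower and 3 higher members against 1.74% and 1.02% of all genes, and -0.24 over the 32 members with a mean FPKM of at least 1. Counts of members stayed at 4 lower and 3 higher with the 6 Slitrk genes and Unc5cl that a literal reading of the symbols adds, and without Unc50, which was chosen after seeing the data. The cause of these shifts was not tested. No replicate could be left out and no paired analysis was possible because the deposited values are pooled by condition, and the wide intervals limit what can be said of any single gene.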
